A study of Homo sapiens with 6 samples.

Results

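The genes described here are those of sphingolipid and ceramide metabolism, 32 genes chosen by name out of the 51537 in the deposited table: synthesis of ceramide, its conversion to sphingomyelin and glycolipids, its breakdown, and the handling of sphingosine 1-phosphate. Each of the 32 symbols matched 1 row, and 31 passed the filter of at least 1 TPM in at least 3 libraries. TPM is transcript abundance per gene length, rescaled to the same total in every library, so levels of different genes can be set side by side. The libraries came from H3122, a human lung adenocarcinoma line known for an EML4-ALK fusion. There were 3 control libraries and 3 libraries of a crizotinib-resistant H3122 derivative, selected by raising the dose of this ALK and MET kinase inhibitor stepwise from 0.1 to 10 µM. The labels do not say whether the resistant cells were 1 clone or a pool, whether drug was present at harvest, or whether replicates were separate cultures, and the p-values below cover no more than the variation among the 6 libraries, part or all of which may be technical.

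Sphingolipid synthesis starts in the endoplasmic reticulum, where serine palmitoyltransferase joins serine to a fatty acyl-CoA and ORMDL proteins hold the enzyme in check when ceramide is plentiful. Ceramide synthases then add a second fatty acid whose length depends on the isoform, a desaturase completes ceramide, and the Golgi turns it into sphingomyelin or glucosylceramide. Lysosomes take these lipids apart again, and the sphingosine they release can be phosphorylated to a signalling lipid that a lyase finally destroys. In epithelial tumour cells the pathway is studied because ceramide is linked to growth arrest and death, while sphingosine 1-phosphate is linked to survival.

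Each library held an estimated 29856927 to 36695580 reads, rebuilt from the TPM steps and GENCODE gene lengths. The epithelial markers EPCAM, CDH1, KRT7, KRT8, KRT18 and KRT19 were at 177 TPM or more in all 6 libraries, whereas 2 lung adenocarcinoma markers were low, NKX2-1 at 0 to 0.751 TPM and NAPSA at 1.10 to 2.05 TPM. Of other cell types' markers, 6 of 6 fibroblast genes, 5 of 6 leukocyte genes and 2 of 4 endothelial genes were under 1 TPM in all libraries, with LYZ, MS4A1, DCN, LUM and KDR at 0 throughout. Of the endothelial markers, CDH5 fell from 7.24 to 3.45 TPM in the group means (limma adjusted p = 2.19e-04) and PECAM1 rose from 0.912 to 2.80 TPM (adjusted p = 0.00128), and the list summed to 8.04 to 8.94 TPM in control libraries against 5.79 to 7.22 TPM. The leukocyte markers summed to 4.01 to 4.83 against 5.14 to 5.39 TPM, mostly CD14; their part in the results was not tested. In bulk RNA, fewer cells of a type and less RNA per cell cannot be told apart.

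The changes across the pathway were uneven. DEGS1, CERS4, SPTLC2, SGMS1 and SGPL1 were lower in resistant cells by between 1.70-fold and 2.35-fold in mean TPM, and GALC, SMPD3, CERS6 and ARSA were higher by between 1.53-fold and 2.72-fold. In all, 7 members rose and 10 fell by limma with adjusted p below 0.05, and 14 did not pass the test. The median log2 change (resistant minus control, log2(TPM + 1) scale) over the 31 tested members was -0.03, against 0.00 over all 16077 genes tested, and the median absolute log2 change was 0.26 against 0.27. Among all genes tested, 24.0% rose and 24.7% fell, 48.6% together; for the members these shares were 22.6%, 32.3% and 54.8%. The share of members called is thus close to the background. At least a 1.5-fold change on the log2(TPM + 1) scale was called for 9 members (29.03%) and for 17.9% of all genes, 9.74% higher and 8.15% lower. Control and resistant libraries did not overlap for 20 members (64.5%), against 57.9% of all genes. DEGS2, included in these 20, passed the filter through the control libraries alone, so its lack of overlap is no support for a fall. SGPP2 was under the filter.

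**Figure D1:**
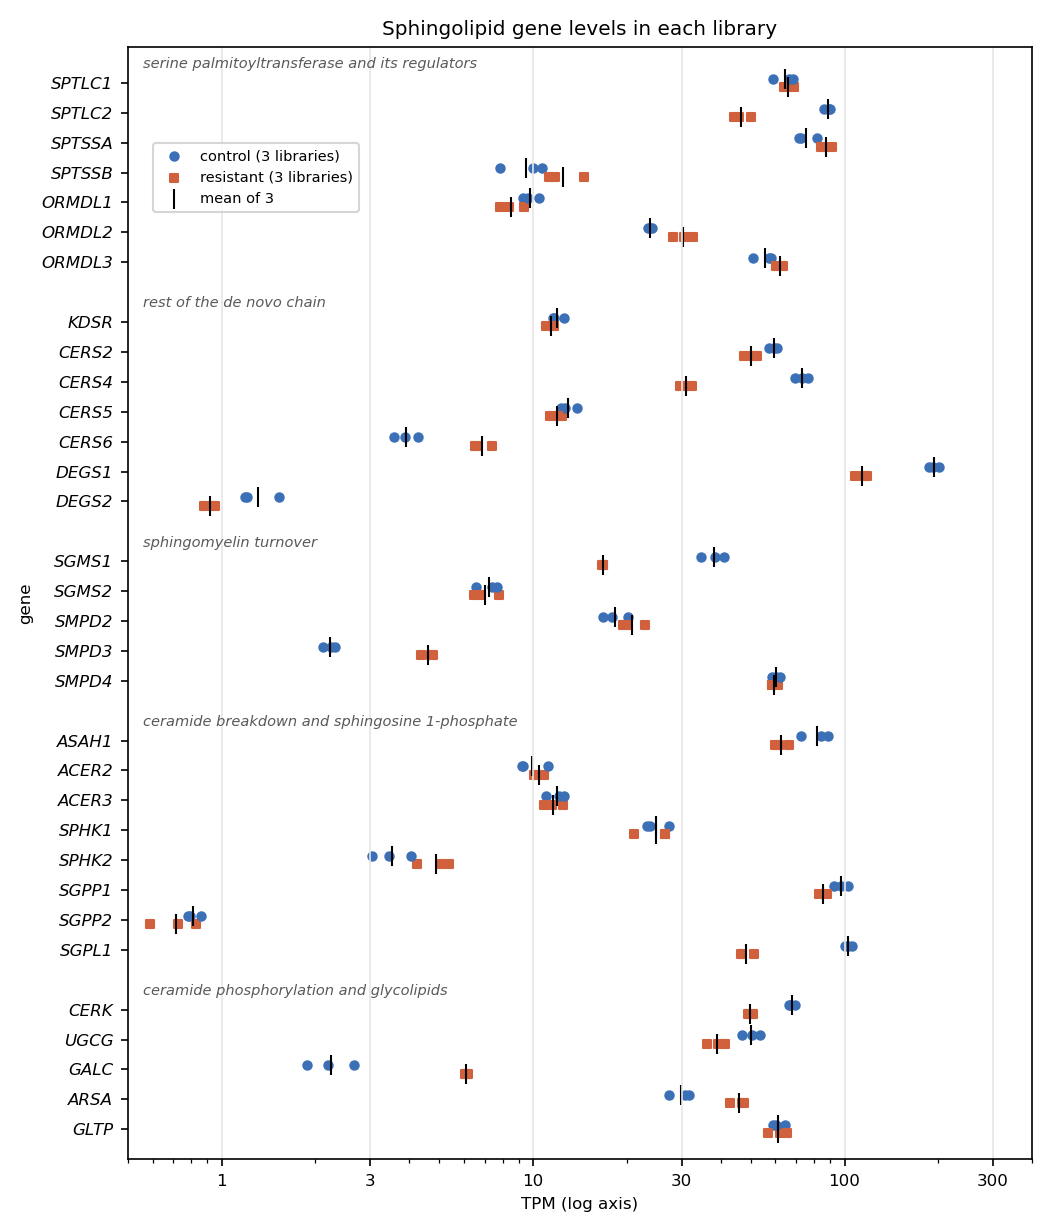
TPM (log axis) of the 32 genes in each library, grouped by role; circles are the 3 control libraries, squares the 3 resistant libraries and vertical ticks the group means. DEGS1 is the highest of them at 187 to 202 TPM in control libraries, SGPP2 stays under 1 TPM, and the SGPL1 and CERS4 groups stand well apart.

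**Figure D2:**
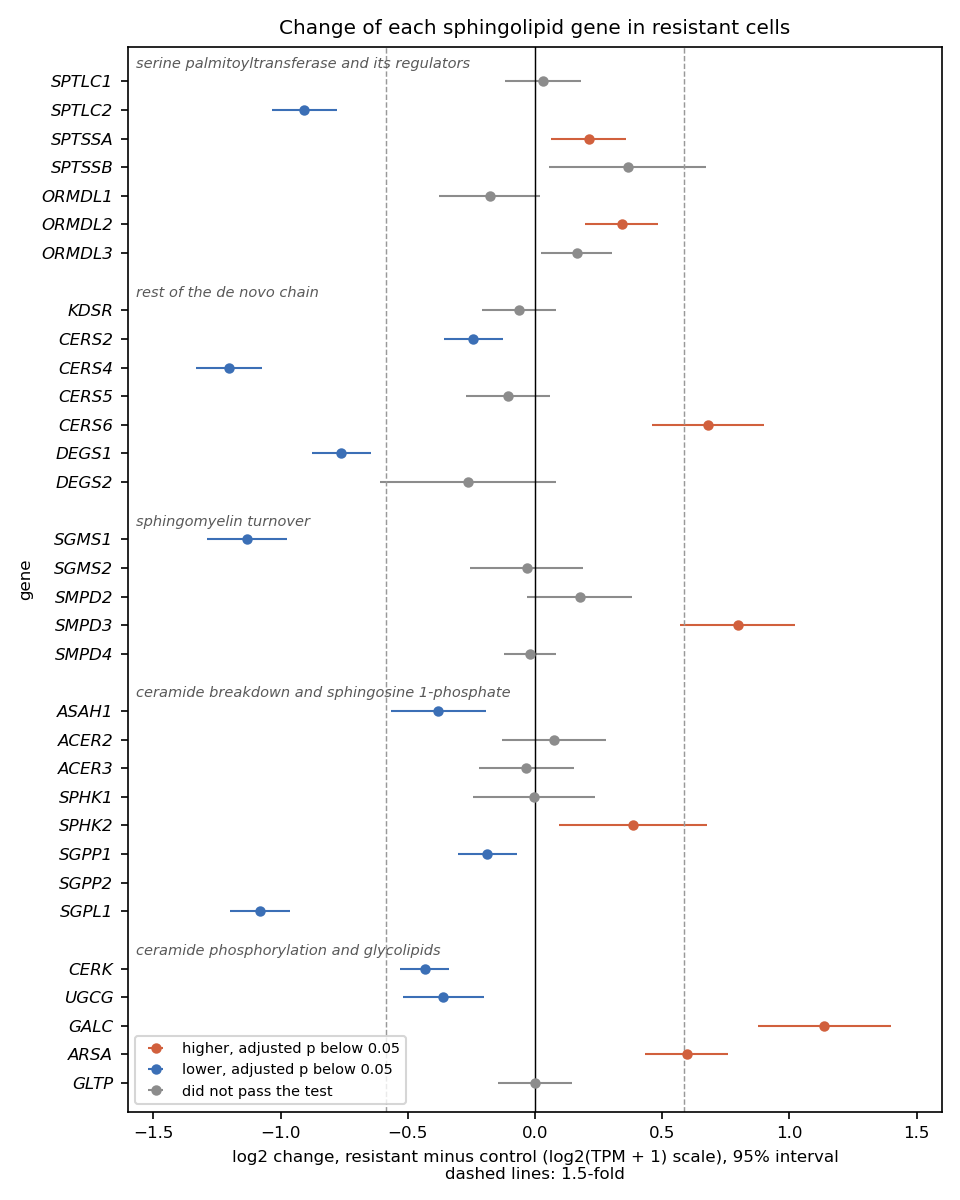
Log2 change of each tested gene in resistant against control cells (log2(TPM + 1) scale) with its 95% interval, coloured by whether the limma test called it; dashed lines mark 1.5-fold. The changes run from -1.203 (CERS4) to 1.14 (GALC), and 14 genes in grey did not pass.

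Start regions are shown, to be read beside their values, for called members that moved furthest and have a single listed start. SGMS1 and SGPL1 are the largest called decreases of this kind, and CERS6 and ORMDL2 the largest called increases of this kind. Members that rose more, such as GALC and SMPD3, had several listed starts or none. This rule for which to show was settled after the values were seen. The sequences are those of RefSeq on GRCh38.p14, from 250 bases before to 50 bases after the start, 5′ to 3′ on the gene's strand. Capitals mark GGGCGG or its complement CCGCCC, the core of the GC box. SGMS1 spans chr10:50623907-50624206 on the minus strand, SGPL1 chr10:70815698-70815997 on the plus strand, CERS6 chr2:168456022-168456321 on the plus strand and ORMDL2 chr12:55817791-55818090 on the plus strand.
SGMS1: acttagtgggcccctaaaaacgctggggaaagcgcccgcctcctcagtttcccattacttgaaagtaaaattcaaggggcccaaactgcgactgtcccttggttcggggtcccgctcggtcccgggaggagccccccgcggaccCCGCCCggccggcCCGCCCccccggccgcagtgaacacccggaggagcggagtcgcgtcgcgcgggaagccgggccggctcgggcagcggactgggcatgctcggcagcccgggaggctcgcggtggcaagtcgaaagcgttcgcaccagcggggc
SGPL1: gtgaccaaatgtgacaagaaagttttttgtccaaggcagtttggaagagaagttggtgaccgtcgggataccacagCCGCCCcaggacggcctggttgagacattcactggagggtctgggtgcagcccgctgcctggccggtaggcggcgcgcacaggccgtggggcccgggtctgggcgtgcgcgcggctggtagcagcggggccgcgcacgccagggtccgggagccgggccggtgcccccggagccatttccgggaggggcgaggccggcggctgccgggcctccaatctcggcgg
CERS6: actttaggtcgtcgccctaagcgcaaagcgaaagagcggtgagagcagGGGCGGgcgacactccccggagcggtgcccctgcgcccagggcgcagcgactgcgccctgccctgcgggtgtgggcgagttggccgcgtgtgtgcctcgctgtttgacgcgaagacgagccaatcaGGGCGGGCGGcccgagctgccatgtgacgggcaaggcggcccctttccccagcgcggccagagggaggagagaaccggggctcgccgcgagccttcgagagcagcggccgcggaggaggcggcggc
ORMDL2: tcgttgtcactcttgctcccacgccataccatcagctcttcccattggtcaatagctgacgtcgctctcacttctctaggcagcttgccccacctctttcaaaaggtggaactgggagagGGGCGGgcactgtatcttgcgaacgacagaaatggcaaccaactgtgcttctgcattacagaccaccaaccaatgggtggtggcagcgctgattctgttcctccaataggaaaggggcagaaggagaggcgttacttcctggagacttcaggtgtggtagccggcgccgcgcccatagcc

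The first 3 of these windows were rich in G and C, at 70.3%, 70.0% and 72.3%, with 35, 30 and 38 CpG dinucleotides, while ORMDL2 had 55.7% and 13. GGGCGG, searched on both strands, occurred in a window of all 25 members that had one, those that rose, fell or did not pass alike; it occurred in 45.0% of all 35116 windows and in a window of 76.9% of 9414 tested genes. CCAAT occurred for 9 of the 25 members (43.0% of tested genes with a window, and 34.6% of all windows), TATAAA for SGMS2 alone (8.27% and 11.5%), and CACGTG for 0 (12.5% and 7.26%). In all 11 motifs were searched on both strands. Of the other 7, TGACTCA occurred for SGMS2, SGPP2 and SPHK1 (5.10% and 4.95%), the kappaB site (0.276% and 0.191%) and TGATGCAA (0.733% and 0.866%) for SGPP2, and the NRF1 motif for SMPD4 (6.27% and 2.75%), none of them called genes. TGACGTCA (3.82% and 1.85%), a longer relative of TGATGCAA (0.0425% and 0.0655%) and the ZBTB33 motif (0.999% and 0.424%) occurred for 0 members. Of the 10 members with a window that were called, 5 fell and 5 rose, and CCAAT was found for 2 of the former and 3 of the latter. Promoters were matched for 25 of the 32 members by symbol, and those without an entry were ASAH1, ARSA, CERK, SMPD3, CERS4, CERS2 and SGPP1.

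The transcripts of the large subunits of serine palmitoyltransferase differed in balance between the groups. SPTLC2, the catalytic large subunit that binds the cofactor (ENSG00000100596, chromosome 14, 77505997 to 77616773), was at 86.0, 88.8 and 89.8 TPM in the control libraries and at 50.05, 45.8 and 44.2 TPM in the resistant libraries. The groups were far apart, and SPTLC2 fell by 0.91 on the log2 scale (SE 0.05, adjusted p = 1.97e-05). SPTLC1, the partner subunit with which it forms the enzyme's core (chromosome 9, 92000087 to 92115384), was at 59.0, 68.4 and 66.3 TPM against 68.9, 64.9 and 64.0 TPM. Those libraries overlapped, and the log2 change of SPTLC1 was 0.03 with a 95% interval of -0.12 to 0.18. A transcribed pseudogene, SPTLC1P1, was at 9.59 and 5.45 TPM in the group means, and how the counting divided reads between it and SPTLC1 is not given in the sources used here. The ratio of SPTLC2 to SPTLC1 went from 1.37 ± 0.08 to 0.71 ± 0.02 (SD, n = 3 in each group), so SPTLC2 was the more abundant large subunit in control libraries and the less abundant one in resistant libraries.

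The small subunits, which raise the enzyme's activity and influence which acyl-CoA it takes, were higher or not called. SPTSSA (chromosome 14, 34432789 to 34462356) was at 71.2, 81.6 and 72.7 TPM in control and 91.4, 85.4 and 84.4 TPM in resistant libraries. SPTSSA overlaps the span of EGLN3 on the same strand, which was at 16.4 and 13.8 TPM. The groups were adjacent without overlap, and SPTSSA rose by 0.21 on the log2 scale (SE 0.06, adjusted p = 0.0260). Its adjusted p ranged from 0.00737 to 0.0873 over 12 alternatives and the call was lost in 6 of them, including those without control replicate 1 (0.0683), control replicate 3 (0.0873) or resistant replicate 1 (0.0684). SPTSSB, at 9.51 ± 1.48 TPM and 12.5 ± 1.80 TPM, had a log2 difference of 0.36 (95% interval 0.05 to 0.67) that did not pass (adjusted p = 0.0547). That gene was called in 3 of the 12 alternatives (adjusted p 0.0259 to 0.1402), one of them the fit without control replicate 2 (0.0356). SPTSSA held 88.8% ± 1.13 of the small-subunit TPM in control and 87.5% ± 1.07 in resistant libraries, a difference of the size of the spread.

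Of the ORMDL proteins, which sense ceramide and restrain the enzyme, only ORMDL2 was called. ORMDL2 (chromosome 12, 55817919 to 55821879) was at 24.0, 23.8 and 23.4 TPM in control and 30.4, 32.6 and 28.1 TPM in resistant libraries. Each resistant library lay above every control library, and the log2 rise was 0.34 (SE 0.06, adjusted p = 0.00288). ORMDL3, the most abundant of the family, was at 55.4 ± 4.08 and 62.1 ± 1.548 TPM, and its log2 difference of 0.16 did not pass (adjusted p = 0.0563). It was called with median-ratio scaling (0.0156) and with a filter at 5 TPM (0.0404), within a range of 0.0156 to 0.123 over the alternatives. ORMDL1 was at 9.76 ± 0.61 and 8.52 ± 0.77 TPM (adjusted p = 0.123). Whether the ORMDL genes differ from each other in their change was not tested. The summed TPM of the large subunits, SPTLC3 included, was 161 ± 7.30 in control and 118 ± 6.07 in resistant libraries, while that of the ORMDL genes was 88.9 ± 4.24 and 101 ± 3.89.

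The ceramide synthases moved in opposite directions. CERS4, which prefers long-chain acyl-CoAs (ENSG00000090661, chromosome 19, 8206736 to 8262421), was at 69.2, 72.8 and 76.6 TPM in control and at 29.6, 31.3 and 32.4 TPM in resistant libraries. The lowest control library was above 2 times the highest resistant one, and CERS4 fell by 1.203 (SE 0.06, adjusted p = 6.86e-06), the largest decrease among the members. CERS6, which makes ceramides with a palmitoyl chain (ENSG00000172292, chromosome 2, 168455862 to 168775137), was at 3.57, 4.27 and 3.88 TPM and then at 7.39, 6.51 and 6.66 TPM. It rose by 0.68 on the log2 scale (SE 0.09, adjusted p = 8.54e-04), from a low level. CERS2, the synthase of very-long-chain ceramides, was at 57.3, 59.5 and 60.8 TPM against 47.5, 50.1 and 52.2 TPM and fell by 0.24 (SE 0.05, adjusted p = 0.00552). CERS5, with a preference close to that of CERS6, was at 12.9 ± 0.83 and 11.9 ± 0.54 TPM, and its log2 change of -0.11 (95% interval -0.27 to 0.06) did not pass.

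Shares of the ceramide synthase transcripts are given as a description, with no test. CERS4 held 48.4% ± 0.46 of the summed TPM of the 6 synthases in control libraries and 30.4% ± 0.46 in resistant libraries, and CERS2 held 39.4% ± 0.54 and 48.9% ± 0.87. CERS4 led in each control library and CERS2 in each resistant library. CERS6 went from 2.60% ± 0.20 to 6.72% ± 0.65, while CERS3 was at 0 in 5 of the libraries. The sum itself went from 151 ± 6.44 to 102 ± 3.08 TPM.

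**Figure D3:**
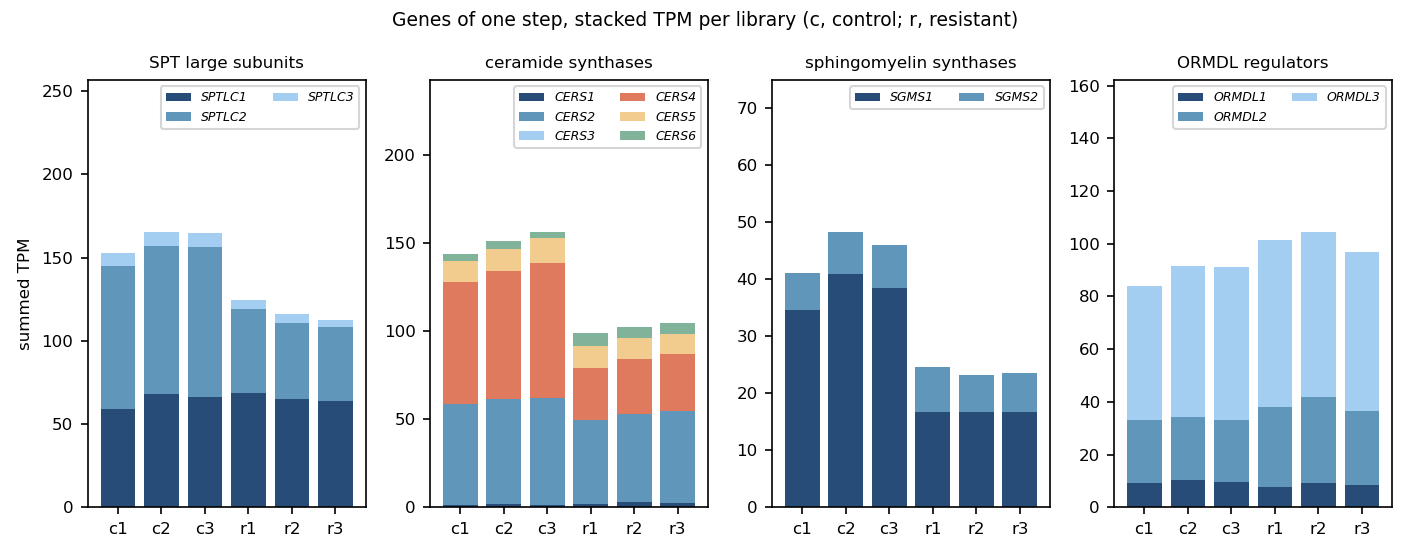
Stacked TPM of the genes of 4 steps in each library (c1 to c3 control, r1 to r3 resistant; each panel starts at 0 and has its own scale). The large-subunit, ceramide synthase and sphingomyelin synthase bars are shorter in resistant libraries, through SPTLC2, CERS4 and SGMS1, and the ORMDL bars are not.

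The other enzymes of the chain are KDSR, which reduces 3-ketosphinganine, and the desaturases. DEGS1, which inserts the double bond that turns dihydroceramide into ceramide (ENSG00000143753, chromosome 1, 224175756 to 224193441), was at 187, 202 and 193 TPM in control and 108, 116 and 118 TPM in resistant libraries. The groups were widely separated and DEGS1 fell by 0.76 (SE 0.05, adjusted p = 2.89e-05). It remained the member with the highest level in either group. DEGS2, a relative that also hydroxylates, was at 1.21, 1.53 and 1.19 TPM and then at 0.955, 0.880 and 0.927 TPM, and it did not pass (adjusted p = 0.183). DEGS1 held 99.3% of the desaturase TPM in control and 99.2% in resistant libraries. KDSR was at 12.0 ± 0.50 and 11.4 ± 0.34 TPM, with a log2 change of -0.06 (95% interval -0.21 to 0.08).

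In sphingomyelin turnover, a synthase fell and a hydrolase rose. SGMS1, the Golgi enzyme that transfers phosphocholine to ceramide (ENSG00000198964, chromosome 10, 50305586 to 50625163, start region above), was at 34.6, 41.0 and 38.4 TPM in control and at 16.8, 16.7 and 16.8 TPM in resistant libraries. The resistant libraries were nearly equal and all under the control range, and SGMS1 fell by 1.13 (SE 0.07, adjusted p = 1.86e-05). Its antisense gene SGMS1-AS1 was at 5.02 and 3.31 TPM in the group means. SGMS2, which does the same at the plasma membrane, was at 7.19 ± 0.58 and 7.02 ± 0.67 TPM, with a log2 change of -0.03 (95% interval -0.25 to 0.19). The ratio of SGMS1 to SGMS2 was 5.29 ± 0.28 in control and 2.40 ± 0.21 in resistant libraries.

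SMPD3, neutral sphingomyelinase 2, which releases ceramide from sphingomyelin and is known for its part in exosome formation (ENSG00000103056, chromosome 16, 68358325 to 68448688), was at 2.12, 2.31 and 2.25 TPM in control and 4.35, 4.71 and 4.75 TPM in resistant libraries. It rose by 0.80 (SE 0.10, adjusted p = 4.35e-04) without overlap of the groups. PRMT7, whose span on the opposite strand overlaps that of SMPD3 at least in part, was at 16.8 and 17.5 TPM. The other neutral sphingomyelinases did not pass: SMPD2 was at 18.3 ± 1.75 and 20.8 ± 1.81 TPM (adjusted p = 0.139). SMPD4, by far the most abundant of them at 58.5 to 62.3 TPM in all 6 libraries, had a log2 change of -0.02 (95% interval -0.12 to 0.08).

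Ceramide breakdown and sphingosine 1-phosphate genes included a large decrease at the exit of the pathway. SGPL1, the lyase that irreversibly cleaves sphingosine 1-phosphate (ENSG00000166224, chromosome 10, 70815961 to 70881173, start region above), was at 100.3, 103 and 106 TPM in control and at 46.4, 51.1 and 46.9 TPM in resistant libraries. The lowest control library was far above the highest resistant library, and SGPL1 fell by 1.08 (SE 0.05, adjusted p = 7.23e-06). SPHK1, a kinase that makes sphingosine 1-phosphate, was at 23.7, 27.2 and 23.3 TPM against 21.1, 26.5 and 26.6 TPM. The libraries overlapped, with a 95% interval of -0.25 to 0.24 for the log2 change of SPHK1. SPHK2, its nuclear and mitochondrial relative, was at 3.51 ± 0.51 and 4.89 ± 0.59 TPM and rose by 0.38 (SE 0.12, adjusted p = 0.0359). Its adjusted p ranged from 0.0225 to 0.116 over 11 alternatives, and the call was lost in 6 of them, without control replicate 1 (0.0783) or 2 (0.106) and without resistant replicate 2 (0.0986) or 3 (0.116) among them. SPHK2 overlaps the span of RPL18, at 426 and 435 TPM on the opposite strand. The kit was stranded, but whether the counting used strand is not given in the sources used here. Opposite-strand genes also overlap SMPD4 (MZT2B, 74.6 and 79.8 TPM), SPHK1 (PRPSAP1, 27.5 and 26.3), CERS2 (SETDB1, 16.2 and 13.2) and ORMDL2 (DNAJC14, 12.0 and 13.0). At lower levels this holds for KDSR, ORMDL1, DEGS2 and SMPD2. The part of such overlaps was not tested.

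SGPP1 and SGPP2 encode phosphatases that return sphingosine 1-phosphate to sphingosine. SGPP1 was at 92.8, 103 and 97.4 TPM in control and 87.6, 82.8 and 86.2 TPM in resistant libraries and fell by 0.19 (SE 0.05, adjusted p = 0.0166). The call was lost without control replicate 2 (adjusted p = 0.0591), control replicate 3 (0.0530) or resistant replicate 2 (0.0546), within a range of 0.00487 to 0.0591 over the alternatives. SGPP2 was at 0.588 to 0.856 TPM in the 6 libraries, on an estimated 19 reads or more, and was not tested. The ratio of SPHK1 to SGPL1 was 0.24 ± 0.02 in control and 0.51 ± 0.06 in resistant libraries, and that of SGPP1 to SGPL1 was 0.95 ± 0.04 and 1.78 ± 0.14.

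Among the ceramidases, which split ceramide into sphingosine and a fatty acid, the lysosomal one fell. ASAH1, acid ceramidase, was at 72.4, 88.8 and 84.1 TPM in control and 66.1, 61.5 and 59.7 TPM in resistant libraries, and fell by 0.38 (SE 0.08, adjusted p = 0.00597). The alkaline ceramidases ACER2 of the Golgi and ACER3 were at 9.89 ± 1.13 and 11.9 ± 0.82 TPM in control and at 10.4 ± 0.38 and 11.6 ± 0.84 TPM in resistant libraries, and neither passed. ASAH1 held 78.2% ± 0.67 of the summed ceramidase TPM, ACER1 and ASAH2 included, in control and 73.2% ± 0.26 in resistant libraries.

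Of the glycolipid members, UGCG at the entry fell, and the lysosomal GALC and ARSA rose. UGCG, which makes glucosylceramide and opens the main glycolipid branch, was at 46.7, 53.5 and 50.4 TPM in control and 41.2, 39.2 and 36.3 TPM in resistant libraries, and fell by 0.36 (SE 0.07, adjusted p = 0.00353). CERK, which phosphorylates ceramide, was at 66.3, 69.5 and 67.1 TPM against 49.1, 50.8 and 49.5 TPM and fell by 0.43 (SE 0.04, adjusted p = 1.39e-04). For both genes every resistant library lay under every control library.

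GALC, the lysosomal galactosylceramidase whose loss causes Krabbe disease (ENSG00000054983, chromosome 14, 87837820 to 87993665), was at 1.89, 2.20 and 2.65 TPM in control and at 6.03, 6.20 and 6.09 TPM in resistant libraries. This was the largest increase among the members, with a log2 rise of 1.14 (SE 0.11, adjusted p = 1.67e-04). ARSA, the arylsulfatase that removes sulfate from sulfatide (ENSG00000100299, chromosome 22, 50622754 to 50628173), was at 27.4, 31.8 and 30.7 TPM against 47.6, 46.8 and 42.8 TPM. It rose by 0.60 (SE 0.07, adjusted p = 3.75e-04), again with no overlap. GLTP, which carries glycolipids between membranes, was at 61.3 ± 2.71 and 61.4 ± 4.36 TPM, with a log2 interval of -0.15 to 0.15. The ratio of UGCG to GALC, the entry to one branch over the exit of another, was 22.7 ± 3.21 in control and 6.37 ± 0.44 in resistant libraries. Of the other glycolipid synthesis genes, UGT8 reached 0.0234 TPM at most and GAL3ST1 0.109 TPM, both under the filter.

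The 9 members past 1.5-fold were called in all alternatives that tested them, with adjusted p up to 0.00957. Of the 14 members that did not pass, 12 had a 95% interval inside 1.5-fold in either direction, and SPTSSB and DEGS2 did not. Summed over the 32 members, the control libraries reached 1353 ± 60.5 TPM and the resistant libraries 1098 ± 17.5 TPM. The 19 members with a lower mean summed to a difference of -313.5 TPM, of which DEGS1, SGPL1, CERS4 and SPTLC2 made up -218 TPM, and the 13 with a higher mean to 59.0 TPM, a net of -255 TPM.

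Some members lie where neighbouring genes also changed. For each member the median log2 change was taken over the nearest tested protein-coding genes, up to 10 on each side. There were 20 for each tested member except ARSA, which has 12. The shares to hold the counts of called neighbours against were 24.7% lower and 24.0% higher over all genes tested. SGMS1 and SGPL1 lie on chromosome 10, where the neighbours' medians were -0.78 and -0.45, with 17 and 14 of 20 neighbours called lower; the members themselves were at -1.13 and -1.08. CERS4 had a neighbours' median of -0.28 with 11 of 20 lower, against -1.203 for the gene. ARSA, near the end of chromosome 22, had a neighbours' median of 0.51 with 10 of 12 called higher and 0 lower, against 0.60 for the gene. DEGS1 had a neighbours' median of -0.21 with 9 of 20 called lower and 3 higher, against -0.76 for the gene. The members SPTLC2 (-0.08), GALC (-0.04), SMPD3 (0.09) and CERS6 (0.10) had neighbours' medians nearer to 0. Called lower and higher among the 20 neighbours were 8 and 5 for SPTLC2 and 7 and 3 for GALC. For SMPD3 they were 5 and 8, and for CERS6 2 and 6. SGPP1 fell while 14 of its 20 neighbours rose (median 0.37). The part of the chromosomal segment in these results was not tested.

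**Figure D4:**
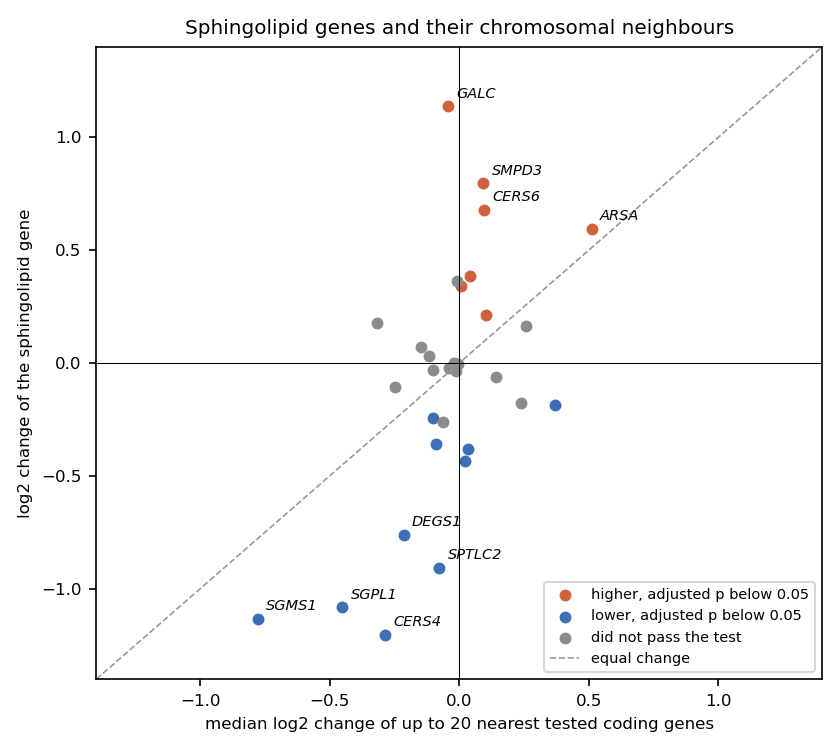
Log2 change of each tested sphingolipid gene against the median log2 change of its nearest tested protein-coding genes (20, or 12 for ARSA); the dashed line marks equal change, and the 9 genes past 1.5-fold are named. SGMS1 and ARSA lie nearest to the line among the named genes, with neighbours at -0.78 and 0.51, and GALC lies far from it with neighbours at -0.04.

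Other genes of the pathway, 51 in a list that leaves out the 32, went both ways. Of 40 tested, 11 rose and 14 fell and 15 did not pass (27.5% and 35.0%, against 24.0% and 24.7% of all genes), with a median log2 change of 0.02. In de novo synthesis 2 of 3 tested genes fell and 0 rose: SPTLC3, an alternative large subunit, went from 8.06 ± 0.56 to 5.15 ± 0.55 TPM, and FA2H, which hydroxylates the fatty acid, from 10.1 ± 0.62 to 7.33 ± 0.18 TPM. In ceramide transport and sphingomyelin 2 of 8 rose and 3 fell. COL4A3BP, which encodes the ceramide carrier CERT between endoplasmic reticulum and Golgi, fell from 14.2 ± 1.32 to 10.8 ± 0.87 TPM. SAMD8, a relative of the sphingomyelin synthases on chromosome 10 with a neighbours' median of -0.57, fell from 17.0 ± 1.401 to 11.7 ± 1.33 TPM. SMPDL3B, a membrane phosphodiesterase, rose from 13.4 ± 0.28 to 21.5 ± 1.40005 TPM.

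Beyond the lyase, 2 of 4 tested genes of late breakdown fell and 0 rose: HACL1, a peroxisomal lyase of hydroxylated fatty acids, went from 17.3 ± 0.14 to 8.63 ± 0.49 TPM (log2 -0.92 ± 0.06 SE), and ALDH3A2, the fatty aldehyde dehydrogenase that takes up the lyase's product, from 162 ± 6.78 to 136 ± 5.02 TPM. Of 5 tested genes of sphingosine 1-phosphate export and reception 2 fell and 0 rose. Among all genes tested, 24.7% fell and 24.0% rose, and both lists are too short to be set apart from these shares. SPNS2, the exporter, went from 62.4 ± 1.39 to 49.7 ± 3.53 TPM, and the receptor gene S1PR3 from 23.0 ± 0.99 to 15.0 ± 0.43 TPM (log2 -0.58 ± 0.06 SE). S1PR1 was at 0 in 4 of the 6 libraries.

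In the list of genes that build complex glycolipids, more rose than fell. Of 9 tested, 5 rose and 1 fell (55.6% and 11.1%, against 24.0% and 24.7% of all genes). Whether this short list, chosen with earlier results known, differs from these shares was not tested. The one that fell, B4GALT5, which makes lactosylceramide and was the most abundant of the list, went from 206 ± 0.60 to 181 ± 9.15 TPM (adjusted p = 0.0134); it is named beside the rule, after its values were seen. B3GALNT1, which makes globoside, rose from 2.94 ± 0.43 to 8.98 ± 0.45 TPM (log2 1.34 ± 0.10 SE), ST3GAL2, a sialyltransferase, from 5.88 ± 0.35 to 8.18 ± 0.62 TPM, and B3GNT5, which starts the lacto-series, from 11.2 ± 1.001 to 14.8 ± 2.01 TPM. Of 11 tested genes of glycolipid breakdown 4 rose and 4 fell. GM2A, the activator protein that presents ganglioside GM2 to its hydrolase, rose from 51.4 ± 1.49 to 128 ± 3.55 TPM (log2 1.30 ± 0.04 SE, adjusted p = 1.73e-06), with a neighbours' median of 0.05. PSAP, the precursor of the saposins that GALC and ARSA need, fell from 1089 ± 37.7 to 824 ± 18.3 TPM on chromosome 10 (neighbours' median -0.51), and GLA, alpha-galactosidase on the X chromosome, from 70.7 ± 4.21 to 46.4 ± 1.69 TPM (neighbours' median -0.53). GALC and ARSA thus rose while the gene of their activator proteins fell.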

How the data were processed

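Messenger RNA was sequenced in 3 control and 3 crizotinib-resistant H3122 libraries. The authors deposited 1 table of TPM, with a column per library. HISAT2 is named per the submitters' processing notes; no source used here gives a version, counter, annotation, build or set of gene lengths. Coordinates are those of GENCODE release 29 (GRCh38), which holds each of the 51537 identifiers. Reads were estimated by dividing TPM times GENCODE union exon length by its smallest step (whole within 0.01 for 67.2% to 67.9% of values above 0), so they are approximate; TPM itself keeps no depth.

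The filter of 1 TPM in 3 or more libraries left 16077 genes, which were fitted with limma 3.58.1 in R 4.3.3 (statmod 1.5.0): log2(TPM + 1) on group, all 6 libraries, trended and robust empirical Bayes, two-sided, Benjamini-Hochberg over all genes, called below 0.05. This scale understates changes of low genes. The fit was tested on simulated data, where a first target for the share of changed genes recovered was narrowly missed and replaced, after that outcome was seen, by limits on false calls and wrong signs. Shares and ratios of TPM were described without a test, and ± is the SD of 3 libraries unless SE is named. Per-library values are given for members called with at least a 1.5-fold change and the most abundant of each step, except ORMDL3. They are also given for some members outside this rule, such as ORMDL2, DEGS2, UGCG and CERK. Other pathway genes are the up to 3 largest called changes per role with a mean of at least 5 TPM. COL4A3BP is the older symbol of CERT1. Alternatives were another pseudocount, filters, scaling, empirical Bayes settings, a replicate block and leaving out each library. The members and lists were chosen with earlier results of these data known.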

Additional observations from a re-analysis of the deposited data

How the results depend on the processing

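Counts of members called ranged from 5 to 9 higher and from 9 to 11 lower over the 12 alternatives, against 7 and 10. Counts of other pathway genes ranged from 9 to 12 and from 13 to 15, against 11 and 14, and counts over all genes from 3001 to 3972 higher and from 3001 to 4327 lower, against 3852 and 3963. Of the 17 called members, 14 kept their call in each alternative that tested them. SPTSSA, SPHK2 and SGPP1 did not, and of those not called, SPTSSB and ORMDL3 passed in at least 1. The cause was not tested. DEGS2 also passed in 1 (0.0283 without trend and robust estimation). It entered the test through the control libraries alone, so that pass is no support for a fall. Leaving out 1 library turned the sign of 6 uncalled log2 changes near 0, with ranges of -0.032 to 0.073 (SPTLC1), -0.099 to 0.016 (SGMS2), -0.042 to 0.0019 (SMPD4), -0.085 to 0.012 (ACER3), -0.060 to 0.10 (SPHK1) and -0.043 to 0.057 (GLTP). Median-ratio scaling gave -0.0084 for GLTP.

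The labels number the replicates 1 to 3 in both groups. Deviations from the group means correlated over genes at -0.058, -0.0017 and -0.016 between same-numbered libraries. Between libraries of different number the correlations ran from -0.044 to 0.058. No effect shared by replicate number was thus seen, but these values cannot say whether same-numbered libraries were handled together. With the replicate number as a block, 5 members were called higher and 10 lower, 9 and 14 other pathway genes, and 3433 and 3423 genes overall; SPTSSA (adjusted p = 0.0516) and SPHK2 (0.0595) were the members that lost their call. Depth limits SGPP2 and DEGS2, with an estimated 19 and 36 reads in their lowest library.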
